A study of Homo sapiens with 12 samples.

Results

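The comparison described here set MCF10A cells with a deleted p53 gene against MCF10A cells with intact p53, both carrying an empty vector and no H-Ras. MCF10A is an established line of immortalized human breast epithelium that does not form tumours. RNA sequencing covered 12 libraries in 4 groups of 3, of which 6 enter this comparison. The p53-deleted vector line had p53 deleted by targeting exon 2 and carried pBabepuro, an empty retroviral vector, and the wild-type vector line carried pBabepuro with p53 intact. The H-Ras groups stably expressed the oncogenic mutant H-RasV12 from a retrovirus, one in each p53 background, and are used here for the same contrast a second time, for the test of a difference between the pairs, in the scaling and in an alternative fit. All groups grew in DME/F-12 medium with supplements and horse serum, and none was treated. Each H-Ras line had its own vector line, made at the same time, as its control, so the vector lines compared here belong to different pairs. p53 status and line therefore cannot be told apart, and the labels do not say from how many clones the p53-deleted line was grown. Genes with a mean of at least 10 scaled reads in either vector line were kept, 12787 of the 62082 genes listed. Just inside that limit lay MIR29B1 and AGBL3, at 10 and 10.02 scaled reads in the higher line, and just outside it lay WHAMMP2 at 9.997.

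p53 is a transcription factor that is stabilised by DNA damage, oncogene activity and other stress, and that switches on genes of cell cycle arrest, cell death and DNA repair. MDM2, a target of p53, is the ubiquitin ligase that keeps the protein low, and its partner MDM4 restrains p53 at its target promoters. In mammary epithelium p53 is known as a guard of genome integrity.

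A scaled read is a read divided by the library's size factor and brought to a common scale for the 4 groups. The deposited tables hold group means, and the reads of single libraries were solved from them. Within a group the library with the largest size factor is called A, the next B and the last C, and values are listed in that order. Estimated totals were 7846958 to 9836119 reads in the wild-type vector libraries and 9157489 to 9750487 in the p53-deleted ones. Wild-type library A stood apart, with a chi-square per degree of freedom of 22.4 and 27.4 against B and C, which differed by 4.10, while the p53-deleted libraries differed by 6.42 to 11.8. It had low levels of cell cycle genes, with a median log2 deviation from its group of -0.75 for the S phase list and -0.90 for the mitosis list. Among the H-Ras libraries, wild-type C stood apart likewise, at 25.5 and 27.7 against A and B, which differed by 2.42. Log2 differences are p53-deleted minus wild-type on the log2(scaled reads + 1) scale, with their SE and n = 3 libraries a group, and adjusted p-values come from limma, by the Benjamini-Hochberg method over 12759 genes. A gene was called at an adjusted p under 0.05. In bulk samples, fewer cells of a type and less RNA per cell cannot be told apart.

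Of 12759 genes tested, 3901 (30.6%) were called. The p53-deleted line had 1991 genes called higher (15.6%) and 1910 called lower (15%), and 800 and 778 of these differed by at least 1 on the log2 scale. The counts of every gene list below are to be read against these shares of 15.6% and 15%. The groups of 3 libraries did not overlap for 5790 genes (45.4%), and nearly all called members of the gene lists were among them. A lack of overlap in a called gene therefore adds little to its call. At an unadjusted p under 0.05 there were 5217 genes. The number called was 2517 without p53-deleted library A and 4711 without wild-type library A.

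The genes with the largest rise were nearly silent in the wild-type line. KRT13, a keratin of stratified mucosal epithelium, held 1.8, 7.7 and 4.7 scaled reads in the wild-type line and 1556, 873 and 1824 in the p53-deleted line (log2 difference 8.03 ± 0.40, adjusted p = 2.6e-06). Its partner KRT4 held 0.9, 1.1 and 0 against 147, 63.5 and 165 scaled reads, a ratio of 178 (95% interval 48.9 to 1475, 2 against 398 reads). COL6A1 and COL6A2, chains of the beaded-filament collagen VI, held 2.7, 1.1 and 2.3 against 610.5, 660.5 and 705 (log2 difference 7.79 ± 0.25, adjusted p = 4.1e-07) and 0, 1.1 and 0 against 142, 121 and 184, the latter a ratio of 424 (95% interval 75.7 to 16779, 1 against 474 reads). Both were at the level of single reads in the wild-type libraries. GPAT2, a mitochondrial acyltransferase, held 0.9, 0 and 0 against 390.3, 392 and 485 scaled reads, a ratio of 1204 (95% interval 216 to 47583, 1 against 1346 reads). ADD2, which encodes the membrane skeleton protein beta-adducin, had a ratio of 685 (95% interval 189 to 5662, 2 against 1532 reads). PODXL2 (endoglycan) and the transposase-derived PGBD5 had ratios of 649 (95% interval 116 to 25681, 1 against 726 reads) and 587 (95% interval 105 to 23209, 1 against 656 reads), and MAPK8IP1, a scaffold of the JNK pathway, one of 121 (95% interval 41.0 to 588, 3 against 405 reads). C1orf115 and FAM155B had no read in the wild-type libraries and were at least 209-fold and 116-fold higher, when the silent group is set to 3 reads in all. The intervals and floors cover counting error only. LEPREL2, a collagen prolyl hydroxylase, ALPP, the placental alkaline phosphatase, CD22, a lectin known from B cells, and DPYSL3, a cytoskeletal protein known from neurons, rose by 5.79 ± 0.33, 5.52 ± 0.33, 5.5 ± 0.48 and 5.36 ± 0.59 on the log2 scale, with adjusted p-values of 4.6e-06, 5.6e-06, 5.4e-05 and 1.9e-04. ALPP has near-identical relatives, between which reads may have been split.

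The genes with the largest fall were nearly silent in the p53-deleted line. CASP14, a caspase of terminal keratinocyte differentiation, held 4032, 578 and 365 scaled reads in the wild-type line and 0.9, 0.9 and 0 in the p53-deleted line, a ratio of 2935 (95% interval 812 to 24242, 5250 against 2 reads) between the lines. Its wild-type libraries differed widely, with A far above B and C, yet the groups did not overlap. INPP5D, a lipid phosphatase best known from blood cells, held 1330.1, 1112 and 1081 against 0, 1.8 and 3.9 scaled reads (log2 difference -8.92 ± 0.48, adjusted p = 3.5e-06). CD70, a TNF family ligand, held 1456, 790.3 and 848 against 5.5, 4.6 and 5.9 and fell by 7.30 ± 0.25 (adjusted p = 4.1e-07). BDH1, a mitochondrial ketone body enzyme, had a ratio of 334 (95% interval 114 to 1624, 897 against 3 reads), and C1QTNF1, a secreted C1q-like protein, had no read in the p53-deleted libraries and was at least 133-fold lower. MMP2, a gelatinase, and LAMA4, a laminin chain, fell by 6.12 ± 0.41 and 6.08 ± 0.42 (adjusted p = 1.1e-05 and 1.4e-05). TSHZ2 and ZNF608, both zinc finger genes, fell by 6.09 ± 0.76 and 5.68 ± 0.34. The secreted factors STC1, SMOC1 and FGF2 fell by 5.85 ± 0.40, 4.93 ± 0.28 and 4.87 ± 0.34, and the metalloprotease ADAM8 by 4.86 ± 0.17. METTL7A and NGFR, the p75 neurotrophin receptor, fell by 5.29 ± 0.19 and 4.95 ± 0.36. Adjusted p-values of these 8 genes ranged from 4.1e-07 to 4.1e-04.

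**Figure D1:**
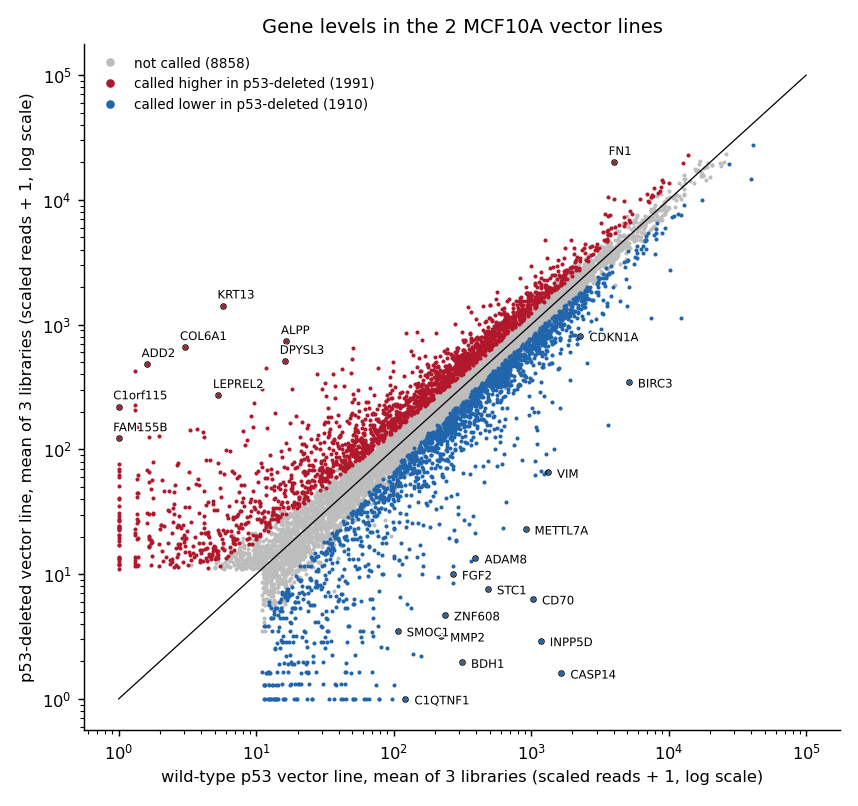
Mean scaled reads + 1 of each tested gene in the wild-type vector line (x axis) and the p53-deleted vector line (y axis), both on log scales, with 1 point per gene and the line of equal levels. The 1991 genes called higher lie above the line and the 1910 called lower below it, and KRT13, COL6A1 and ADD2 on one side and CASP14, INPP5D and CD70 on the other are among those farthest from it.

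The calls were unevenly spread along the chromosomes. Genes with a mean of at least 50 scaled reads were put in chromosomal order and cut into 415 blocks, 394 of them of 25 genes, and 5 segments had at least 4 consecutive blocks whose median log2 difference lay beyond 0.25 in the same direction. The segment on chromosome 1 ran from PIAS3 to PGBD2 and held 454 genes with a median of 0.53, of which 279 were called higher and 16 lower. That on chromosome 13, from MPHOSPH8 to CHAMP1, took in all 8 blocks of the chromosome and held 192 genes with a median of 0.64, 126 called higher and 3 lower. That on chromosome 20, from SOX12 to PCMTD2, took in all 12 blocks and held 292 genes with a median of 0.53, 184 called higher and 15 lower. On chromosome 19, 344 genes from GATAD2A to RPL23AP79 had a median of 0.47, with 170 called higher and 14 lower. Chromosome 11 went the other way, with a median of -0.57 over 500 genes from BET1L to AASDHPPT, of which 308 were called lower and 12 higher. The median of the 343 blocks outside the segments lay between -0.33 and 0.37.

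**Figure D2:**
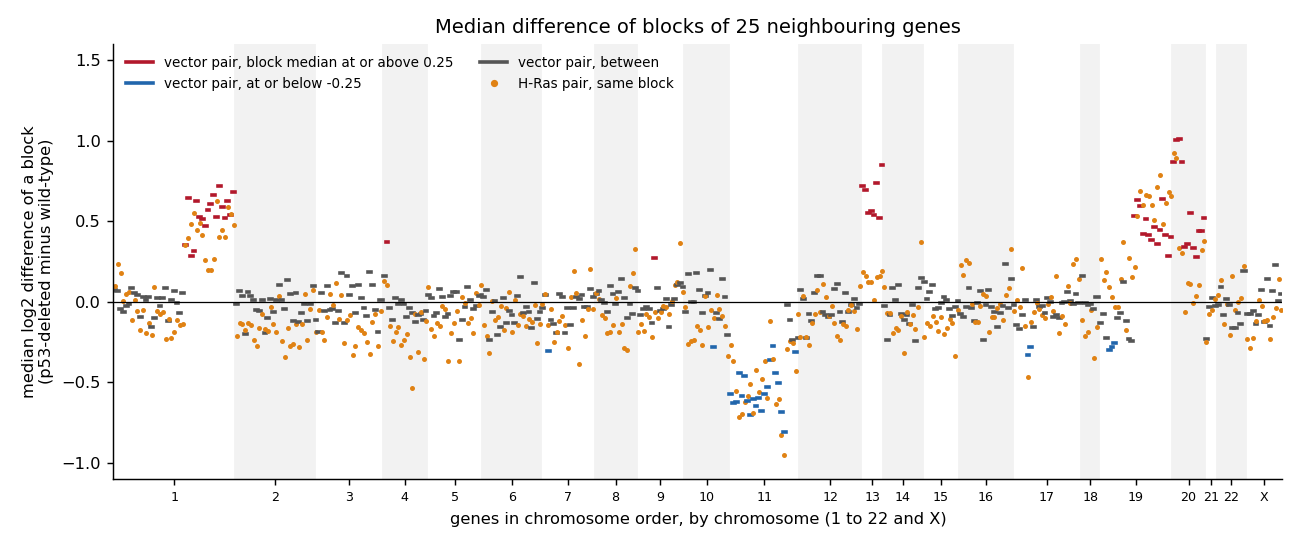
Median log2 difference (p53-deleted minus wild-type) of each of 415 blocks of neighbouring genes in chromosomal order along the x axis, with dashes for the vector pair (red at or above 0.25, blue at or below -0.25) and orange dots for the H-Ras pair. The dashes of the 5 segments stand off the zero line, down to -0.81 on chromosome 11 and up to 1.01 on chromosome 20.

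The shift was of similar size in each p53-deleted library. Relative to the wild-type vector mean, the chromosome 1 segment had medians of 0.54, 0.53 and 0.54 in p53-deleted vector libraries A, B and C, and the chromosome 11 segment -0.57, -0.56 and -0.56. The chromosome 13 segment had 0.68, 0.68 and 0.54, the chromosome 19 segment 0.44, 0.46 and 0.50, and the chromosome 20 segment 0.52, 0.49 and 0.59. The wild-type vector libraries lay between -0.026 and 0.045 in all 5. The H-Ras pair, which shares no library with the vector pair, had segment medians of 0.43 on chromosome 1, -0.56 on chromosome 11 and 0.61 on chromosome 19. On chromosomes 13 and 20 its medians were 0.14 and 0.26, nearer to 0 than in the vector pair. In the vector pair all blocks of chromosome 20 were raised, but in the H-Ras pair the chromosome did not move as a whole. Its blocks from SOX12 to PLCB4 had medians of 0.87 and 1.00 in the vector pair and 0.92 and 0.89 in the H-Ras pair. Its other blocks ranged from 0.28 to 1.01 in the vector pair and from -0.063 to 0.37 in the H-Ras pair. The segments were chosen from the vector data, so their counts are a description with no test, and DNA copy number was not measured. The 5 segments together held 1782 genes, 771 called higher and 356 lower. Among the other 8568 genes in order, 848 were called higher (9.90%) and 1235 lower (14.4%).

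**Figure D3:**
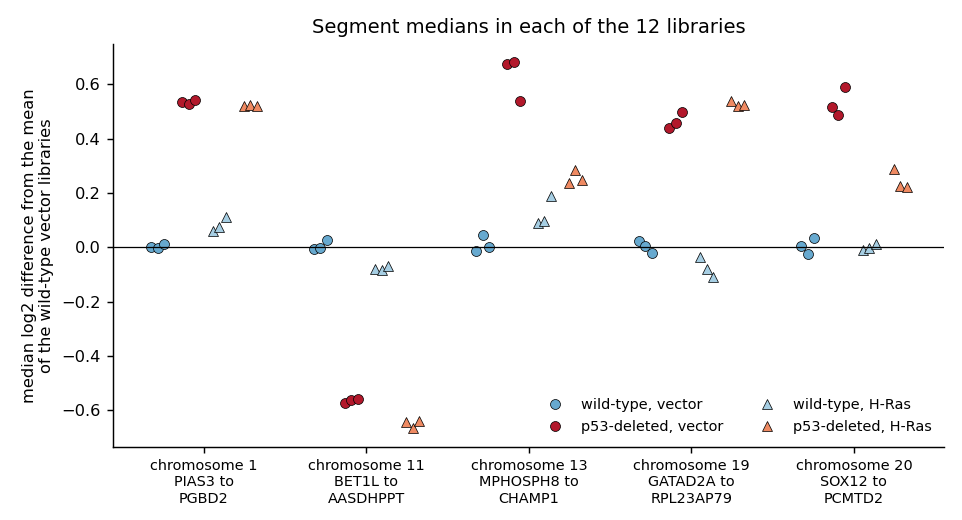
Median log2 level of the genes of each segment in each of the 12 libraries, relative to the mean of the wild-type vector libraries, with circles for vector and triangles for H-Ras libraries. The p53-deleted vector libraries stand between 0.44 and 0.68 for the 4 raised segments and near -0.56 for chromosome 11, and the p53-deleted H-Ras libraries lie closer to 0 than these on chromosomes 13 and 20.

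The p53 target genes did not move as a single group. Of 16 tested targets of cell cycle arrest and feedback, 3 were called lower and 1 higher, against 15% and 15.6% of all genes. Their median log2 difference was 0.020, against 0.0091 for all genes. CDKN1A, which encodes the CDK inhibitor p21 and is the best known target of p53, held 2091, 2318 and 2426 scaled reads in the wild-type line and 732, 838 and 869.8 in the p53-deleted line (log2 difference -1.49 ± 0.11, adjusted p = 2.3e-05). GDF15, a secreted stress cytokine, held 485, 291 and 289 against 24.6, 17.5 and 30.6 scaled reads and fell by 3.81 ± 0.26 (adjusted p = 1.4e-05), and in both genes the groups lay far apart. MDM2 held 1442, 1379 and 1059 against 951, 839 and 883 scaled reads (log2 difference -0.53 ± 0.13, adjusted p = 0.015). Its call was lost without wild-type library B or p53-deleted library B or C (adjusted p = 0.065, 0.061 and 0.053). BTG2, an antiproliferative gene, held 230.4, 239.6 and 225 against 446, 362 and 466 scaled reads and was the 1 member called higher (log2 difference 0.86 ± 0.13, adjusted p = 0.0011). It lies in the chromosome 1 segment, and its call was lost when each gene was set against the median of its block, called block-centred below (adjusted p = 0.11).

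The other 12 arrest and feedback targets did not pass the test. They included CCNG1 at 1690.3, 1743 and 1695 against 1630.5, 1614 and 1735, PPM1D at 141, 142 and 173 against 168, 154 and 156, and ZMAT3 at 627, 561 and 542 against 697, 550.1 and 693 scaled reads in the wild-type and p53-deleted libraries, genes for a cyclin, a phosphatase that switches off p53 and an RNA-binding protein. SESN1 and SESN2, the sestrins, GADD45A, a growth arrest gene, and the polo-like kinases PLK2 and PLK3 had log2 differences of -0.038, -0.18, 0.25, -0.20 and -0.10. The log2 differences of CCNG2, TP53INP1, PHLDA3 and C12orf5, the last of them encoding the metabolic regulator TIGAR, were 0.13, 0.18, 0.28 and 0.76. Without wild-type library A, 4 members of this list were called lower and 3 higher, PLK2 joining the first (adjusted p = 0.041) and TP53INP1 and PHLDA3 the second (0.020 and 0.025). Block-centred, PHLDA3 was called lower instead (log2 difference -0.38, adjusted p = 0.043), and C12orf5 was called higher without wild-type library C or in a fit on all 12 libraries (0.019 and 0.037).

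Of 15 tested targets of cell death, 4 were called lower and 4 higher, against 15% and 15.6% of all genes. The lower ones were PMAIP1, which encodes the BH3-only protein NOXA, the death receptor gene EDA2R, the decoy receptor gene TNFRSF10C, and SPATA18, a gene of mitochondrial quality control. PMAIP1 held 293, 226 and 203 scaled reads in the wild-type line and 148, 141 and 118 in the p53-deleted line (log2 difference -0.81 ± 0.17, adjusted p = 0.0066), and EDA2R held 102.4, 104 and 112 against 56.4, 60.7 and 48.4 (log2 difference -0.94 ± 0.17, adjusted p = 0.0029), in both without overlap. TNFRSF10C fell by 1.78 ± 0.46 (adjusted p = 0.017) and SPATA18 by 0.63 ± 0.17 (adjusted p = 0.019). The higher ones were TP53I3, an oxidoreductase, BAX, the pore-forming member of the BCL2 family, APAF1, the scaffold of the apoptosome, and FAS, a death receptor. TP53I3 held 361, 313 and 314 against 761, 832 and 664 scaled reads and rose by 1.19 ± 0.13 (adjusted p = 1.6e-04). BAX, APAF1 and FAS rose by 0.57 ± 0.12, 0.60 ± 0.14 and 0.45 ± 0.11 (adjusted p = 0.0068, 0.012 and 0.012). BAX lies in the chromosome 19 segment and lost its call when block-centred (adjusted p = 0.26), APAF1 and SPATA18 lost theirs without p53-deleted library B (adjusted p = 0.051 and 0.067), and FAS lost its own without p53-deleted library A (adjusted p = 0.068). BBC3, which encodes PUMA, held 86.8, 74.7 and 73.5 against 55.5, 49.7 and 63.2 scaled reads and did not pass the test (log2 difference -0.48 ± 0.18, adjusted p = 0.078), but was called lower when block-centred (adjusted p = 0.0068) or without a variance trend (adjusted p = 0.044). TNFRSF10B, DRAM1, TRIAP1, PIDD, PERP and AEN had log2 differences of -0.15, -0.25, -0.18, 0.063, 0.40 and 0.42, and none passed the test. PERP and TRIAP1 were called without wild-type library A (adjusted p = 0.0052 and 0.017), AEN without C (0.041), and PERP and PIDD when block-centred (0.041 and 0.031).

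Of 7 tested targets of DNA repair and nucleotide supply, 2 were called lower and none higher, against 15% and 15.6% of all genes. RRM2B, the p53-inducible subunit of ribonucleotide reductase, held 1006, 1016 and 916 scaled reads in the wild-type line and 364, 408 and 348 in the p53-deleted line (log2 difference -1.39 ± 0.11, adjusted p = 3.4e-05). DDB2, a sensor of ultraviolet damage, held 715, 833 and 807 against 325, 241 and 346 (log2 difference -1.38 ± 0.15, adjusted p = 1.8e-04) and lies in the chromosome 11 segment. The groups of both genes were well apart. The repair gene XPC and the others of the list, FDXR, POLH, REV3L and RPS27L, had log2 differences of -0.29, -0.0067, 0.046, 0.11 and 0.30 and did not pass. XPC was called lower in a fit on all 12 libraries (adjusted p = 0.022) and RPS27L higher without p53-deleted library C (0.044). Among 10 relatives and regulators of p53, 1 was called lower and 2 higher, but none either way without p53-deleted library A or when block-centred. Without any 1 of the other libraries, 1 or 2 were called higher, 1 of them without wild-type B or p53-deleted B or C, and none lower, save 2 without wild-type A. MDM4 held 121, 129.7 and 101.5 against 199, 178 and 163 scaled reads (log2 difference 0.62 ± 0.16, adjusted p = 0.015), in the chromosome 1 segment, and lost its call when block-centred (adjusted p = 0.76) and without p53-deleted library A (adjusted p = 0.086).

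**Figure D4:**
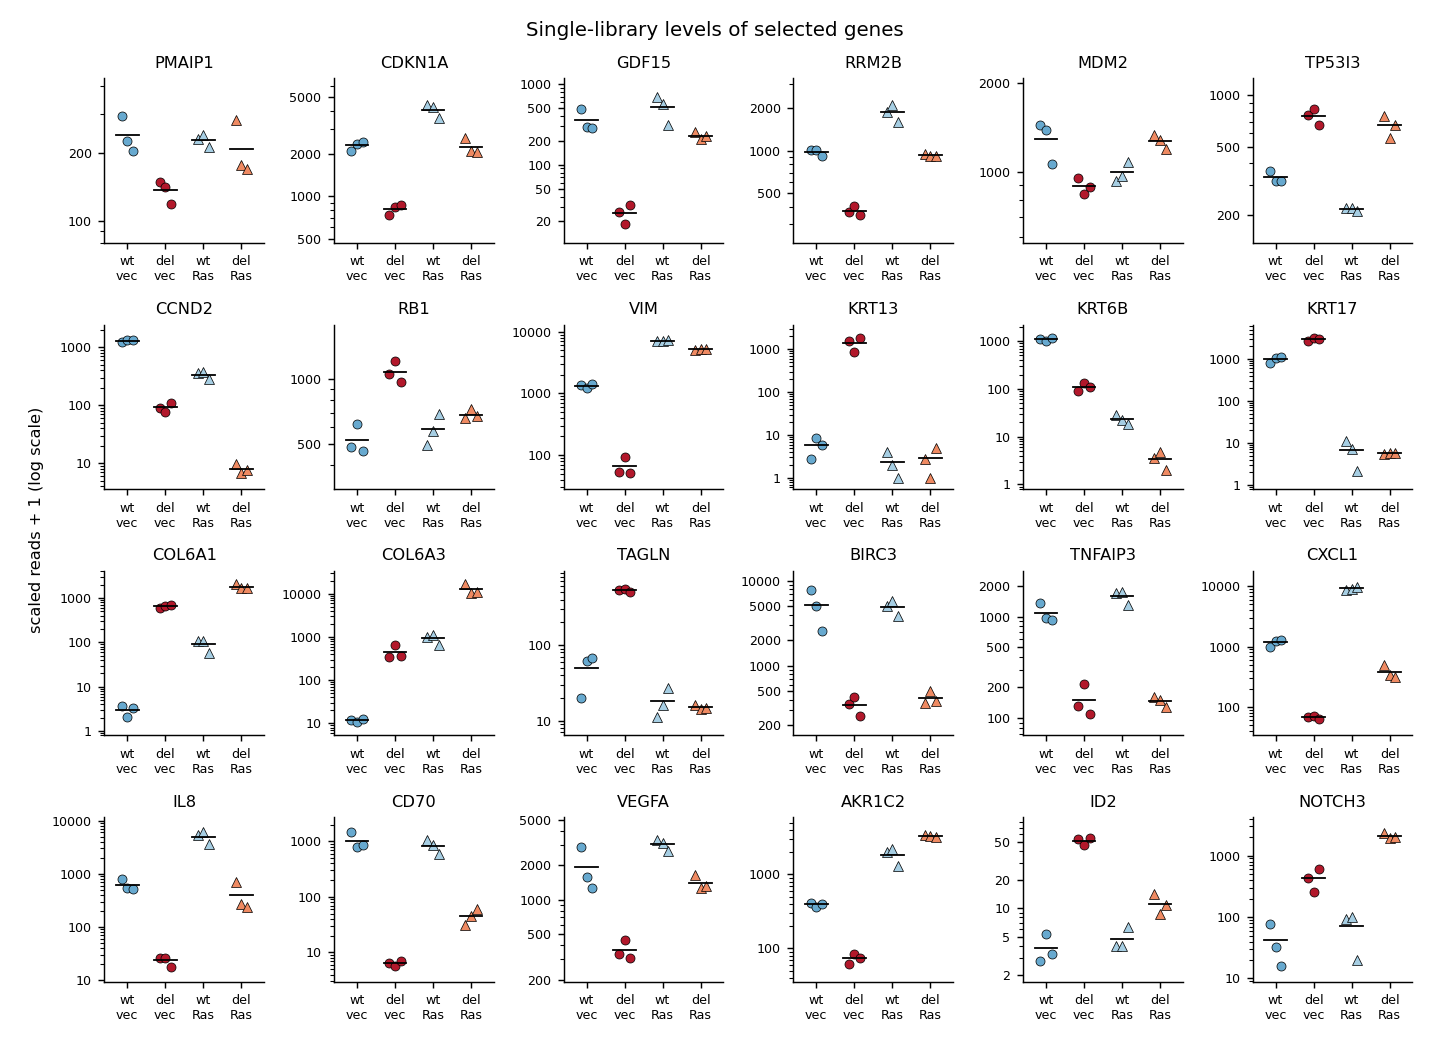
Scaled reads + 1 (log scale) of 24 genes in the single libraries of the wild-type (wt) and p53-deleted (del) lines with the vector (vec, circles) or H-Ras (Ras, triangles), with a bar at each group mean. CDKN1A, GDF15 and RRM2B are lower and TP53I3 higher in the p53-deleted vector libraries, while KRT13 stands at 873 to 1824 there and under 8 in every other library.

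The cell cycle regulators near RB1 showed differences in both directions. Of 12 tested members of the list of D cyclins, CDK inhibitors and the RB family, 3 were called lower and 3 higher, and 1 higher without p53-deleted library A or C. CCND2, which encodes cyclin D2, held 1208, 1312 and 1334 scaled reads in the wild-type line and 90.1, 76.4 and 107 in the p53-deleted line (log2 difference -3.82 ± 0.14, adjusted p = 4.1e-07), and its groups were more than an order of magnitude apart. CCND3 fell by 0.51 ± 0.10 (adjusted p = 0.0039). CCND1, a D cyclin often amplified in breast cancer, held 2239, 2817 and 3071 against 3025, 2837 and 3247 scaled reads and did not pass the test (adjusted p = 0.36), but was called higher when set against its block on chromosome 11 (0.040). RB1, the retinoblastoma gene, which holds back S phase, held 484, 619 and 465 against 1060, 1215 and 972 (log2 difference 1.05 ± 0.14, adjusted p = 5.5e-04), in the chromosome 13 segment. Its relative RBL1 rose by 0.59 ± 0.15 (adjusted p = 0.017), in the chromosome 20 segment, and the call was lost when block-centred (adjusted p = 0.93) and without p53-deleted library A or C (0.080 and 0.057). CDKN2D, a CDK4 inhibitor, held 47.5, 42.9 and 47.8 against 75.5, 66.2 and 77 and was called higher (log2 difference 0.65 ± 0.18, adjusted p = 0.022), but not without wild-type library B or p53-deleted library A or C (adjusted p = 0.077, 0.094 and 0.073). CDKN1B and CDKN2C had log2 differences of 0.09 and 0.33 and did not pass.

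Of 29 S phase genes tested, 5 were called higher and 1 lower, against 15.6% and 15% of all genes. Without wild-type library A, 5 were called higher and 8 lower, and when block-centred 2 and 1. None was lower without wild-type library B or C or p53-deleted library A or B. GINS1, a subunit of the replicative helicase, held 100.6, 204 and 198 against 564, 542 and 582 scaled reads (log2 difference 1.81 ± 0.24, adjusted p = 5.8e-04). PCNA, the sliding clamp, held 767, 1267 and 1512 against 2488, 2200.5 and 2461 (log2 difference 1.06 ± 0.22, adjusted p = 0.0051) and, like GINS1, lies in the chromosome 20 segment, and its call was lost when block-centred (adjusted p = 0.89). The E cyclins CCNE1 and CCNE2 rose by 0.94 ± 0.16 and 1.27 ± 0.36 (adjusted p = 0.0021 and 0.026). CCNE1 was not called when block-centred (adjusted p = 0.11), and CCNE2 not without any 1 of the p53-deleted libraries (adjusted p = 0.077 to 0.094). Of 22 mitosis genes, 4 were called higher and none lower, with 21 of 22 differences above 0 and a median of 0.44, against 15.6% of all genes called higher. Without wild-type library A the median was 0.063, with 5 called higher and 2 lower. Leaving out each library in turn gave 1 to 6 higher and 0 to 2 lower, with 2 and 1 higher without p53-deleted library A and B, and 6 without wild-type library C, and block-centring gave 2 higher. CDK1, the mitotic kinase, held 561, 918 and 927 against 1292, 1550.1 and 1263 scaled reads (log2 difference 0.80 ± 0.19, adjusted p = 0.012), and wild-type library A was the lowest of the 6. CENPF, KIF11 and TOP2A, genes of the kinetochore, the spindle and chromosome decatenation, rose by 1.09 ± 0.24, 0.63 ± 0.19 and 0.56 ± 0.17 (adjusted p = 0.0081, 0.032 and 0.029). CDK1, KIF11 and TOP2A lost their calls without p53-deleted library B (adjusted p = 0.052, 0.11 and 0.11), KIF11 and TOP2A also without A (0.089 and 0.092), and KIF11 without C (0.088). CENPF and KIF11 lost theirs when block-centred (0.18 and 0.14). The low cell cycle level of wild-type library A moves with these rises, and its part in them was tested only by leaving it out.

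Genes of NF-kappaB signalling were lower in the p53-deleted line. NF-kappaB is a family of transcription factors that drive inflammatory genes and their own inhibitors. Promoter sequences of 4 genes of this group that fell are shown because they hold a form of the NF-kappaB binding site, GGG and TTTCC with 2 bases of any kind between them. They are from RefSeq on GRCh38.p14, 250 bases up to the transcription start on the plus strand, with the motif, or its reverse complement, in capitals: CXCL1 at chr4:73869143-73869392, TNFAIP3 at chr6:137867009-137867258, BIRC3 at chr11:102317234-102317483 and NFKBIZ at chr3:101827740-101827989.
CXCL1: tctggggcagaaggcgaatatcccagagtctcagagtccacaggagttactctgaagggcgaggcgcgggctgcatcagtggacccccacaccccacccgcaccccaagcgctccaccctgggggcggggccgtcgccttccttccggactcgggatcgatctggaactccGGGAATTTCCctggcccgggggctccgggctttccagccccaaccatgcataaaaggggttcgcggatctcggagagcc
TNFAIP3: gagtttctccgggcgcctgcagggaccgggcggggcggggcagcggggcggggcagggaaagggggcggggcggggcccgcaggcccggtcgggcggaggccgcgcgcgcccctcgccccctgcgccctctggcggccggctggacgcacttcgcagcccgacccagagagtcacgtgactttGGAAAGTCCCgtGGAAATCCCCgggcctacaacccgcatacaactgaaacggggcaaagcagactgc
BIRC3: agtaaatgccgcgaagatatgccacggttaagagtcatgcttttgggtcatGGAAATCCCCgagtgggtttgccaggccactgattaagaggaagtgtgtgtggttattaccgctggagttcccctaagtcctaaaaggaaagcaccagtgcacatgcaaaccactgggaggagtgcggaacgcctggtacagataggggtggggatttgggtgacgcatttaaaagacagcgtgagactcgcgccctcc
NFKBIZ: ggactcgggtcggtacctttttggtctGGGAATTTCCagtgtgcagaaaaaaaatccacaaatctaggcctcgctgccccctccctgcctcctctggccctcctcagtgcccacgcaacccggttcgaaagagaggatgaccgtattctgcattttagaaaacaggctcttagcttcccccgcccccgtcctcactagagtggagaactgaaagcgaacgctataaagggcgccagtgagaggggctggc
The motif lies 69 bases before the start of CXCL1 and 213 before that of NFKBIZ. It is on the reverse strand 189 bases before the start of BIRC3, and 57 and 45 bases before that of TNFAIP3. On either strand, 473 of 27305 RefSeq promoters of this length (1.73%) hold it. Of 11 members of the NF-kappaB list found in RefSeq, 6 hold it, and of 6 chemokines found, 4. Genes of these lists are of the kinds NF-kappaB drives, so a share above 1.73% is no result of these data. Among those called lower, 5 of 10 NF-kappaB members and 4 of 5 chemokines hold it, and a link of the motif with the fall was not tested. A match in these letters is a description and not a measured binding site.

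Of 13 tested members of the list of NF-kappaB subunits and feedback genes, 11 were called lower and none higher, against 15% of all genes called lower, and all 13 differences were below 0. Leaving out each library in turn gave 9 to 12 called lower, and block-centring gave 11. BIRC3, an inhibitor of apoptosis, held 7829.7, 4991 and 2592 scaled reads in the wild-type line and 349, 432 and 256 in the p53-deleted line (log2 difference -3.78 ± 0.35, adjusted p = 7.4e-05). It lies in the chromosome 11 segment, but the fall was many times the median of that segment. TNFAIP3, the ubiquitin-editing inhibitor A20, held 1345, 966 and 917 against 129, 214 and 109.6 (log2 difference -2.86 ± 0.24, adjusted p = 4.9e-05). NFKBIZ, an atypical nuclear inhibitor, and ICAM1, an adhesion molecule for leukocytes, fell by 1.22 ± 0.17 and 1.88 ± 0.29 (adjusted p = 7.7e-04 and 0.0011). In each of these 4 genes the 3 p53-deleted libraries lay below all wild-type ones.

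The neutrophil chemokines fell with them. Of 7 chemokines tested, 5 were called lower and 1 higher, with a median log2 difference of -2.81, and the higher call was lost without any 1 library but wild-type A. CXCL1 held 992, 1245 and 1303 scaled reads in the wild-type line and 68.2, 69.9 and 61.2 in the p53-deleted line (log2 difference -4.12 ± 0.14, adjusted p = 4.1e-07). IL8 held 811, 532 and 521 against 25.5, 24.8 and 16.8 scaled reads (log2 difference -4.73 ± 0.23, adjusted p = 2.5e-06). CXCL2 and CXCL3, which are close copies of CXCL1 so that reads may have been split between them, fell by 3.08 ± 0.26 and 2.81 ± 0.29 (adjusted p = 4.4e-05 and 1.4e-04). No wild-type library overlapped a p53-deleted one in these 4 genes, which held for 45.4% of all genes tested. In the H-Ras pair, CXCL1, IL8, TNFAIP3 and BIRC3 had log2 differences of -4.64, -3.79, -3.42 and -3.55. None of these 4 passed limma's test of a difference between the pairs (adjusted p = 0.13, 0.21, 0.24 and 0.77). Over the whole lists, 4 of 7 chemokines and 2 of 13 NF-kappaB genes did pass it, against 17.4% of all genes. In the H-Ras pair 6 of 13 NF-kappaB genes were called lower, with a median log2 difference of -0.48. For the chemokines it was 6 of 7, with a median of -3.79, against 19.3% of all genes called lower there.

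Interleukins and colony-stimulating factors went both ways, with 9 of 21 called lower and 4 higher. IL7R, the interleukin-7 receptor, held 428, 672 and 668 scaled reads in the wild-type line and 118, 178 and 84.9 in the p53-deleted line (log2 difference -2.24 ± 0.27, adjusted p = 3.1e-04). CSF1, the macrophage growth factor, held 650, 392 and 392 against 158, 136 and 169.8 (log2 difference -1.58 ± 0.20, adjusted p = 4.5e-04), and IL6 was at 13.4 scaled reads on average in the wild-type line with a ratio of 42.5 (95% interval 7.18 to 1722, 38 against 1 reads). The higher ones included CSF3, the granulocyte growth factor, at 76.8, 89 and 104 against 138, 236 and 186 (log2 difference 1.02 ± 0.21, adjusted p = 0.0061), and the IL6 family cytokines IL11 and LIF, which rose by 2.68 ± 0.37 and 0.65 ± 0.12 (adjusted p = 7.0e-04 and 0.0032).

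Of 25 interferon response genes tested, 12 were called lower and 1 higher, with a median of -0.78 and 8 to 13 called lower when each library was left out. IFITM2, an antiviral membrane protein, held 3232, 2284 and 2143 scaled reads in the wild-type line and 566, 431 and 478 in the p53-deleted line (log2 difference -2.36 ± 0.17, adjusted p = 1.7e-05). OAS1, a sensor of double-stranded RNA, held 295, 98.9 and 91 against 26.4, 24.8 and 19.7 (log2 difference -2.51 ± 0.40, adjusted p = 0.0015), with wild-type library A far above B and C. IRF7, the regulator of interferon genes, and BST2, which tethers viruses, fell by 2.14 ± 0.26 and 3.30 ± 0.44 (adjusted p = 3.4e-04 and 5.4e-04). IFITM2 and IRF7 lie in the chromosome 11 segment. CMPK2, a mitochondrial nucleotide kinase, had no read in the wild-type libraries and 21.8, 17.5 and 30.6 scaled reads in the p53-deleted ones, at least 22.1-fold higher.

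Of 13 genes of the list for antigen presentation on HLA class I, 6 were called lower and 1 higher. The immunoproteasome subunit PSMB9 held 217, 165 and 179.6 against 59.1, 62.6 and 60.2 (log2 difference -1.6 ± 0.16, adjusted p = 1.3e-04), and PSMB8 fell by 0.70 ± 0.14 (adjusted p = 0.0040). TAPBP, which loads peptides, and the trimming peptidase ERAP1 fell by 0.80 ± 0.11 and 0.66 ± 0.11 (adjusted p = 7.8e-04 and 0.0023). The heavy chain gene HLA-B was the higher one, at 742, 406 and 457 against 988, 834 and 1123 scaled reads, and rose by 0.91 ± 0.21 (adjusted p = 0.011). The HLA genes are polymorphic near-copies, so their reads are uncertain, and HLA-B lost its call without p53-deleted library C (adjusted p = 0.055).

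Of 12 TNF family ligands and receptors, 6 were called lower and 2 higher. Beside CD70 and NGFR, TNFSF10, the death ligand TRAIL, held 128, 45.1 and 35 against 7.3, 2.8 and 3 (log2 difference -3.59 ± 0.51, adjusted p = 7.5e-04). CD40, a receptor that feeds NF-kappaB, held 33.8, 23.1 and 24.5 against 127, 123 and 137 scaled reads and rose (log2 difference 2.23 ± 0.20, adjusted p = 7.1e-05), in the chromosome 20 segment, and TNFRSF19 rose by 3.38 ± 0.40 (adjusted p = 2.7e-04), in that of chromosome 13. Of 14 complement and coagulation genes, 9 were called lower and 2 higher. C1R and C1S, the first proteases of the classical pathway, held 188, 63.7 and 72.3 against 11.8, 9.2 and 14.8 and 84.1, 39.6 and 30.3 against 13.6, 9.2 and 8.9 scaled reads and fell by 2.92 ± 0.40 and 2.06 ± 0.38 (adjusted p = 6.0e-04 and 0.0032). CFB, a protease of the alternative pathway, fell by 3.02 ± 0.65 (adjusted p = 0.0071), and CFI, which inactivates C3b, had a ratio of 45.3 (95% interval 12.1 to 380.3, 81 against 2 reads). F3, tissue factor, held 1455, 2212 and 2455 against 3998, 4596 and 3818 and THBD, thrombomodulin, 98.7, 74.7 and 89.8 against 223, 249 and 256, and they rose by 1.05 ± 0.18 and 1.46 ± 0.16 (adjusted p = 0.0024 and 1.7e-04). THBD lies in the chromosome 20 segment.

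**Figure D5:**
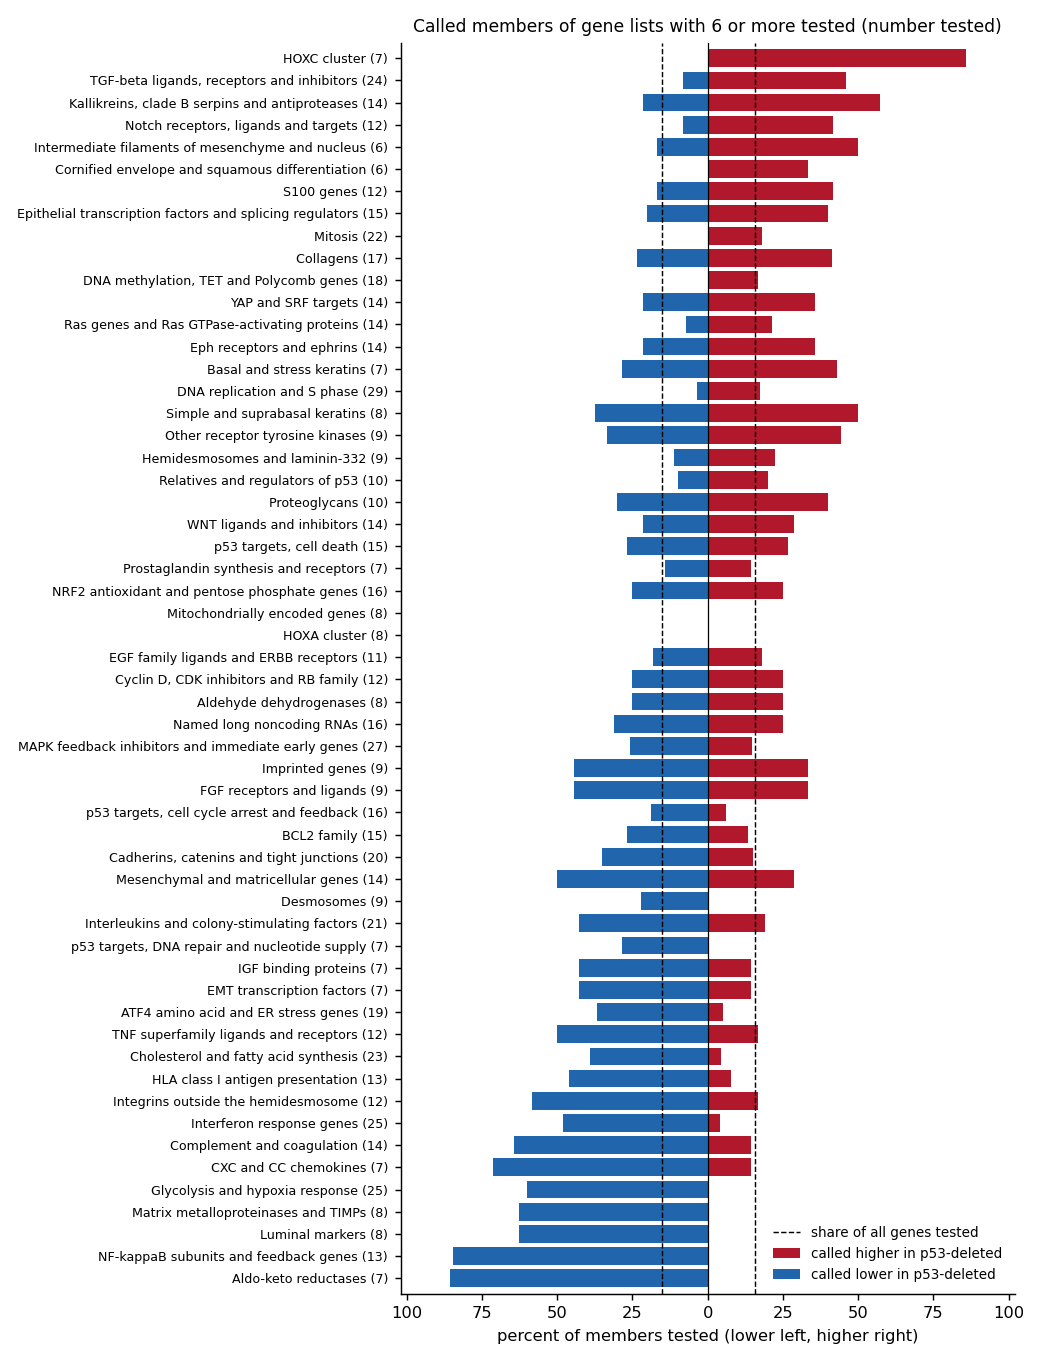
Percent of the tested members of each gene list with 6 or more tested (number in brackets) called lower (bars to the left) and higher (bars to the right) in the p53-deleted vector line, with dashed lines at the shares of all genes tested, 15% lower and 15.6% higher. The lists of NF-kappaB and of aldo-keto reductases reach farthest to the left with no bar to the right, and that of the HOXC cluster farthest to the right.

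Intermediate filament genes changed in both directions. VIM, the intermediate filament of mesenchyme that MCF10A cells also express, held 1342, 1238 and 1395 scaled reads in the wild-type line and 51.9, 91.1 and 50.4 in the p53-deleted line (log2 difference -4.39 ± 0.21, adjusted p = 2.5e-06). In the H-Ras pair the log2 difference of VIM was -0.46, and the vector difference minus the H-Ras difference was -3.93 ± 0.24 (adjusted p = 1.4e-06). LMNA, lamin A/C, rose by 0.63 ± 0.12 (adjusted p = 0.0043), in the chromosome 1 segment. LMNA was itself the median gene of its block, so block-centring set its difference to 0 and the loss of its call was fixed in advance. The muscle and neural filaments SYNM and NES were low, at 6.4, 0 and 0 against 24.6, 14.7 and 24.7 and 13.7, 3.3 and 1.2 against 29.1, 33.1 and 21.7 scaled reads, and rose by 3.48 ± 0.73 and 2.47 ± 0.61 (adjusted p = 0.0063 and 0.013). NES was not called when block-centred (adjusted p = 0.051) or without p53-deleted library A or B (adjusted p = 0.057 and 0.054). The lamins LMNB1 and LMNB2 had log2 differences of 0.16 and 0.29 and did not pass.

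Of 7 tested basal and stress keratins, 3 were called higher and 2 lower. KRT17, a keratin of basal and activated epithelium, held 791, 1061 and 1122 scaled reads in the wild-type line and 2617, 3214 and 2959 in the p53-deleted line (log2 difference 1.57 ± 0.15, adjusted p = 8.4e-05), and KRT16 held 48.4, 103 and 107 against 183, 244 and 217 (log2 difference 1.38 ± 0.29, adjusted p = 0.0059). KRT6B held 1133, 1014 and 1142 against 90.1, 129.7 and 111 and fell by 3.32 ± 0.15 (adjusted p = 1.7e-06), while its close copy KRT6A held 9287, 13636 and 15208 against 17779, 21093 and 19943 and rose by 0.65 ± 0.19 (adjusted p = 0.025). KRT14, the basal partner of KRT5, held 137, 463 and 494 against 85.5, 134 and 106 (log2 difference -1.56 ± 0.43, adjusted p = 0.022), with wild-type library A far below B and C. KRT14 was not called without wild-type library B or C or p53-deleted library A or C (adjusted p up to 0.095), nor KRT6A without any 1 of the p53-deleted libraries (up to 0.092). KRT6A also lost its call when block-centred (adjusted p = 0.092). KRT15 and KRT6C had log2 differences of 0.56 and -0.24 and did not pass, though KRT15 did without wild-type library A (adjusted p = 0.043). Reads of the near-identical KRT6A, KRT6B and KRT6C, and of KRT16 and KRT17, may have been split between the copies. KRT5, KRT7 and KRT81 could not be solved into libraries and were not tested. Their group means were 36112, 23798 and 7496 scaled reads in the wild-type line and 42513, 27779 and 24131 in the p53-deleted line.

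Of 8 tested simple and suprabasal keratins, 4 were called higher and 3 lower. Beside KRT13 and KRT4, KRT23 held 8.2, 1.1 and 5.8 against 99.2, 79.1 and 116 (log2 difference 4.27 ± 0.50, adjusted p = 2.5e-04), and the hair keratin KRT86, which has a near-copy, held 38.4, 27.5 and 35 against 133, 123 and 176 (log2 difference 2.06 ± 0.21, adjusted p = 1.3e-04). The simple epithelial pair KRT8 and KRT18 held 6535, 6623 and 6905 against 4580.3, 4750.5 and 5037 and 2345, 2438 and 2635 against 1544, 1430.5 and 2006 scaled reads and fell by 0.48 ± 0.10 and 0.59 ± 0.14 (adjusted p = 0.0066 and 0.010), and KRT80 fell by 0.83 ± 0.14 (adjusted p = 0.0017). KRT18 was not called without p53-deleted library A (adjusted p = 0.056). KRT10 did not pass (log2 difference 0.24).

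Of 15 transcription factors and splicing regulators of epithelial identity, 6 were called higher and 3 lower, with a median of 0.36, and 7 of the 15 lie in the 5 segments. Block-centred, 4 were higher and 3 lower with a median of 0.052, and outside the segments 2 and 1 of 8 were. The grainyhead factor GRHL2 held 513, 429 and 439 against 829, 822 and 956 (log2 difference 0.92 ± 0.12, adjusted p = 4.9e-04), and GRHL3 held 31.1, 29.7 and 25.7 against 64.6, 110.4 and 62.2 (log2 difference 1.38 ± 0.26, adjusted p = 0.0032). OVOL1 and OVOL2, zinc finger factors that oppose the mesenchymal state, rose by 2.32 ± 0.24 and 1.06 ± 0.18 (adjusted p = 1.4e-04 and 0.0022), OVOL1 from within the lowered chromosome 11 segment. OVOL2 lies in the chromosome 20 segment and lost its call when block-centred (adjusted p = 0.91). EHF, ELF3 and KLF4, factors of epithelial differentiation, fell by 1.44 ± 0.14, 1.29 ± 0.36 and 1.16 ± 0.23 (adjusted p = 9.0e-05, 0.023 and 0.0052), and ELF3 was not called without p53-deleted library A or B (adjusted p = 0.058 and 0.081). Of 7 factors known to drive epithelial-mesenchymal transition, 3 were called lower and 1 higher. ZEB1 and TWIST2 held 15.5, 39.6 and 18.7 against 4.5, 6.4 and 3 and 53.9, 49.5 and 58.3 against 20, 29.4 and 17.8 scaled reads and fell by 2.11 ± 0.42 and 1.26 ± 0.25 (adjusted p = 0.0049 and 0.0043). SNAI2, also a factor of basal mammary cells, held 385, 364 and 343 against 755, 835 and 686 and rose by 1.06 ± 0.12 (adjusted p = 1.9e-04).

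Among 20 cadherin, catenin and tight junction genes, 7 were called lower and 3 higher. Without wild-type library A, 8 were higher and 7 lower, and without any 1 of the others 1 or 2 were higher and 5 or 6 lower, with 1 and 6 when block-centred. CDH1, E-cadherin, held 2549, 1924 and 1914 scaled reads in the wild-type line and 2909, 2797 and 3059 in the p53-deleted line (log2 difference 0.47 ± 0.13, adjusted p = 0.023). That call was lost without any library but wild-type A (adjusted p = 0.054 to 0.094) and in the fit on all 12 libraries (adjusted p = 0.19). CLDN1, a tight junction claudin, held 2059, 1216 and 1131 against 113, 84.6 and 99.7 (log2 difference -3.83 ± 0.22, adjusted p = 4.9e-06), with no overlap between the groups. CDH11, a mesenchymal cadherin, had a ratio of 64.8 (95% interval 11.2 to 2605, 58 against 1 reads) and TJP3, a junction scaffold, fell by 3.19 ± 0.51 (adjusted p = 0.0015). CDH2, N-cadherin, held 79.5, 202 and 198 against 53.7, 76.4 and 49.4 (log2 difference -1.31 ± 0.35, adjusted p = 0.018) and was not called without wild-type library B or C or p53-deleted library A or C (adjusted p up to 0.081). CDH4 and EPCAM, an epithelial adhesion molecule, fell by 0.95 ± 0.14 and 0.63 ± 0.11 (adjusted p = 9.2e-04 and 0.0025). F11R, junctional adhesion molecule A, rose by 0.62 ± 0.13 (adjusted p = 0.0071), in the chromosome 1 segment, but not when block-centred (adjusted p = 0.64). CDH3, P-cadherin, and CDH13 had log2 differences of 0.27 and 0.34, and CTNNA1 and CTNNB1, the catenins, 0.12 and 0.22, and these 4 did not pass, though CDH3 and CDH13 did without wild-type library A (adjusted p = 0.020 and 0.047).

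Of 9 desmosome genes, 2 were called lower and none higher, namely PKP2, a plakophilin (log2 difference -0.65 ± 0.10, adjusted p = 0.0015), and DSC2, a desmocollin (-0.64 ± 0.14, adjusted p = 0.0068). Without wild-type library A, 3 were higher, and block-centred 1 was. DST, the hemidesmosome plakin, held 3755, 3098 and 2035 against 1019, 1282 and 1017 (log2 difference -1.38 ± 0.21, adjusted p = 0.0010), and LAMA3, a chain of laminin-332, rose by 0.53 ± 0.11 (adjusted p = 0.0056). Of 8 tested luminal markers, 5 were called lower and none higher, and 3 lower without p53-deleted library A. MUC1, the apical mucin of luminal cells, held 968, 745 and 640.3 scaled reads in the wild-type line and 133, 98.4 and 139 in the p53-deleted line (log2 difference -2.65 ± 0.19, adjusted p = 1.5e-05). It lies in the raised chromosome 1 segment. AGR2, a secretory cell gene, and GATA3, the luminal transcription factor, fell by 3.45 ± 0.55 and 0.55 ± 0.15 (adjusted p = 0.0015 and 0.024), and GATA3 was not called without wild-type library B or p53-deleted library A or B (adjusted p = 0.076, 0.068 and 0.084).

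Genes of squamous differentiation and secreted barrier proteins went both ways, and many lie in the segments. Of 6 tested genes of the cornified envelope, 2 were called higher and none lower, and 1 higher when block-centred. IVL, involucrin, a scaffold of the cornified envelope, held 25.6, 35.2 and 36.2 against 209, 139.8 and 194 (log2 difference 2.44 ± 0.22, adjusted p = 6.6e-05), in the chromosome 1 segment. Of 14 tested kallikreins, clade B serpins and antiproteases, 8 were called higher and 3 lower. KLK10, KLK7 and KLK6, secreted serine proteases encoded in the chromosome 19 segment, rose by 2.34 ± 0.14, 2.55 ± 0.30 and 2.06 ± 0.42 (adjusted p = 5.6e-06, 2.9e-04 and 0.0056). PI3, the elastase inhibitor elafin, held 88.7, 159 and 149 against 629, 618 and 586 (log2 difference 2.24 ± 0.21, adjusted p = 7.5e-05), in the chromosome 20 segment. The serpins SERPINB3 and SERPINB4, which are near-copies, and SERPINB1 fell by 1.80 ± 0.42, 3.46 ± 0.44 and 0.99 ± 0.14 (adjusted p = 0.011, 4.1e-04 and 6.4e-04). Of 12 S100 genes, 11 of them in the chromosome 1 segment, 5 were called higher and 2 lower, but 3 and 3 when block-centred. S100A8 and S100A9, which form the antimicrobial calprotectin, held 438, 209 and 197 against 13.6, 26.7 and 12.8 and 1667, 711 and 746 against 232, 202 and 167 scaled reads and fell by 3.89 ± 0.36 and 2.27 ± 0.29 (adjusted p = 7.5e-05 and 4.7e-04) against the direction of their segment. S100A10, S100A13 and S100P rose by 1.01 ± 0.11, 0.80 ± 0.11 and 2.12 ± 0.16 (adjusted p = 1.7e-04, 5.9e-04 and 2.3e-05).

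Matrix genes changed in both directions and by large amounts. Of 17 collagens tested, 7 were called higher and 4 lower, and 4 were higher without p53-deleted library C. Beside COL6A1 and COL6A2, COL6A3, the third chain of collagen VI, held 11, 9.9 and 11.7 scaled reads in the wild-type line and 335, 646 and 354 in the p53-deleted line (log2 difference 5.17 ± 0.26, adjusted p = 2.6e-06), so the 3 chains rose together. COL16A1 held 793, 486 and 419.9 against 148, 139.8 and 153 (log2 difference -1.88 ± 0.21, adjusted p = 2.2e-04). COL13A1, COL8A1 and COL12A1 fell by 2.5 ± 0.32, 1.45 ± 0.16 and 0.82 ± 0.14 (adjusted p = 4.7e-04, 2.1e-04 and 0.0018). FN1, fibronectin, held 2855, 4422 and 4756 against 18306, 20458 and 21434 scaled reads (log2 difference 2.35 ± 0.19, adjusted p = 3.4e-05), and all 3 p53-deleted libraries lay far above the wild-type ones. Of 14 mesenchymal and matricellular genes, 7 were called lower and 4 higher. TAGLN and MYL9, contractile genes of smooth muscle, held 19.2, 60.5 and 66.5 against 533, 559 and 502 and 31.1, 29.7 and 32.7 against 288, 276 and 232 and rose by 3.6 ± 0.39 and 3.05 ± 0.16 (adjusted p = 1.7e-04 and 3.5e-06), whereas ACTA2, smooth muscle actin, fell by 2.12 ± 0.32 (adjusted p = 0.0011). MYL9 lies in the chromosome 20 segment. CYR61, a matricellular target of YAP, rose by 1.52 ± 0.22 (adjusted p = 8.2e-04). LOX, which crosslinks collagen, held 805, 507 and 386 against 76.4, 69.9 and 73.1 (log2 difference -2.87 ± 0.24, adjusted p = 4.1e-05), and TNC, tenascin C, and FBN1, fibrillin, fell by 1.82 ± 0.20 and 2.22 ± 0.38 (adjusted p = 1.8e-04 and 0.0021). Of 10 proteoglycans, 4 were called higher and 3 lower. DCN, decorin, held 69.5, 208 and 213 against 12.7, 11 and 7.9 (log2 difference -3.69 ± 0.41, adjusted p = 2.1e-04), and GPC1, a glypican, 447, 581 and 614 against 1147, 997 and 1444 (log2 difference 1.12 ± 0.17, adjusted p = 9.7e-04).

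Of 8 tested matrix metalloproteinases and TIMPs, 5 were called lower and none higher, save 1 higher without wild-type library A. Beside MMP2, the gelatinase MMP9 held 42.1, 41.8 and 50.2 against 1.8, 16.6 and 3.9 (log2 difference -2.86 ± 0.57, adjusted p = 0.0048), and MMP15 and the inhibitor TIMP3 fell by 1.71 ± 0.24 and 0.74 ± 0.15 (adjusted p = 7.7e-04 and 0.0053). In the plasminogen system both activators fell. PLAU, urokinase, held 1330.1, 989 and 1057 scaled reads in the wild-type line and 147, 277 and 166 in the p53-deleted line (log2 difference -2.55 ± 0.22, adjusted p = 5.8e-05), and PLAT, the tissue activator, held 1945, 1501 and 1501 against 674, 476 and 775 (log2 difference -1.38 ± 0.18, adjusted p = 5.5e-04). SERPINE2, an inhibitor of both, fell by 0.97 ± 0.18 (adjusted p = 0.0030). SERPINB2, another inhibitor, rose by 2.01 ± 0.40 (adjusted p = 0.0049). Integrins outside the hemidesmosome had 7 of 12 called lower and 2 higher, but leaving out any 1 library gave 2 to 5 lower, with 2 without p53-deleted library A and 4 without wild-type A or B or p53-deleted B or when block-centred. ITGA5, the fibronectin receptor chain, and ITGA1 fell by 0.84 ± 0.17 and 1.39 ± 0.33 (adjusted p = 0.0055 and 0.011). ITGA4 had a ratio of 27.3 (95% interval 7.23 to 230.3, 2 against 61 reads), and ITGB1 rose by 0.44 ± 0.11 (adjusted p = 0.013), though not without wild-type library B (adjusted p = 0.065).

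Of 24 signalling genes of the TGF-beta family, 11 were called higher and 2 lower, 9 of the 11 outside the segments. Block-centred, 8 were higher and 3 lower. None was lower without wild-type or p53-deleted library B, and 1 without p53-deleted A. ID2 and ID3, inhibitors of differentiation that respond to BMP signals, held 1.8, 4.4 and 2.3 against 51.9, 45.1 and 54.3 and 111, 138 and 158 against 418, 419 and 418 scaled reads and rose by 3.79 ± 0.33 and 1.63 ± 0.15 (adjusted p = 5.5e-05 and 7.5e-05). The inhibitory SMAD6 and the activin subunit INHBB rose by 2.53 ± 0.35 and 2.80 ± 0.58 (adjusted p = 6.4e-04 and 0.0057). Of 12 Notch genes, 5 were called higher and 1 lower, the lower call being lost without wild-type library B or p53-deleted library A or B, and 2 were lower when block-centred. The receptor NOTCH3 held 75.9, 31.9 and 15.2 scaled reads in the wild-type line and 439.5, 258 and 612 in the p53-deleted line (log2 difference 3.58 ± 0.51, adjusted p = 7.5e-04). The ligand JAG2 and the target HES1 rose by 1.16 ± 0.13 and 1.29 ± 0.15 (adjusted p = 2.4e-04 and 3.0e-04). Of 14 WNT ligands and inhibitors, 4 were called higher and 3 lower, and 1 lower without wild-type library C or p53-deleted library A. The inhibitor DKK1 held 459.8, 982 and 1035 against 2543, 2124 and 2415 (log2 difference 1.6 ± 0.27, adjusted p = 0.0019), the ligand WNT5A rose by 1.84 ± 0.32 (adjusted p = 0.0025) and the inhibitor SFRP1 fell by 0.67 ± 0.10 (adjusted p = 0.0011).

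FGF receptors moved in opposite directions. FGFR1, the mesenchymal form, held 232, 212 and 225 scaled reads in the wild-type line and 85.5, 91.1 and 93.8 in the p53-deleted line (log2 difference -1.30 ± 0.14, adjusted p = 1.5e-04). FGFR2, FGFR3 and FGFR4 rose by 1.12 ± 0.18, 1.38 ± 0.29 and 1.83 ± 0.33 (adjusted p = 0.0017, 0.0065 and 0.0029). Of the ligands, FGF2 held 269.7, 307 and 231 against 14.6, 4.6 and 7.9 and FGF1 11, 15.4 and 11.7 against 0, 4.6 and 0 scaled reads, and FGF1 and FGFBP1, which carries FGFs, fell by 2.93 ± 0.67 and 0.98 ± 0.19 (adjusted p = 0.0092 and 0.0039). In all, 3 of 9 members of this list were called higher and 4 lower. HBEGF, a ligand of the EGF receptor, held 937, 683 and 716 against 146, 200.5 and 187 (log2 difference -2.12 ± 0.17, adjusted p = 3.1e-05), in a list with 2 of 11 called in each direction, and 1 in each without wild-type library B or C or p53-deleted library A. Of 14 Eph receptors and ephrins, 5 were called higher and 3 lower, led by EPHA4 at 7.3, 3.3 and 2.3 against 83.7, 55.2 and 90.8 (log2 difference 3.95 ± 0.38, adjusted p = 9.4e-05). MET, the hepatocyte growth factor receptor, fell by 0.71 ± 0.10 (adjusted p = 8.9e-04), 1 of 3 lower and 4 higher among 9 other receptor tyrosine kinases, of which 1 was higher without p53-deleted library A or C and 1 lower without p53-deleted library A or B. Of 7 IGF binding proteins, 3 were called lower and 1 higher. IGFBP4 had a ratio of 237 (95% interval 42.1 to 9406, 212 against 1 reads), IGFBP2 fell by 2.43 ± 0.41 (adjusted p = 0.0020) and IGFBP6 rose by 0.89 ± 0.16 (adjusted p = 0.0029). Among 27 MAPK feedback and immediate early genes, 7 were called lower and 4 higher. MYC held 6125, 5443 and 5284 against 3142, 2804 and 3260 (log2 difference -0.87 ± 0.11, adjusted p = 4.7e-04), FOS fell by 1.86 ± 0.26 (adjusted p = 7.3e-04), and EGR3 and IER2 rose by 2.09 ± 0.28 and 1.14 ± 0.11 (adjusted p = 5.1e-04 and 1.3e-04).

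Genes of glycolysis and of the hypoxia response were lower. Of 25 tested, 15 were called lower and none higher, with a median log2 difference of -0.62, and leaving out each library in turn gave 15 to 18. VEGFA, the vascular growth factor, held 2888, 1569.6 and 1258 scaled reads in the wild-type line and 330.3, 446 and 307 in the p53-deleted line (log2 difference -2.32 ± 0.27, adjusted p = 2.8e-04). SLC2A3, a glucose transporter, and EGLN3, a prolyl hydroxylase that marks HIF for breakdown, held 272, 90.1 and 77 against 18.2, 7.4 and 12.8 and 191, 89 and 45.5 against 7.3, 10.1 and 8.9 and fell by 3.26 ± 0.48 and 3.26 ± 0.45 (adjusted p = 8.9e-04 and 6.4e-04). CA9, a carbonic anhydrase induced by HIF, held 41.1, 12.1 and 2.3 scaled reads in the wild-type libraries and no read in the p53-deleted ones, at least 21.6-fold lower. Wild-type library A was the highest in these 4 genes, with a median deviation of the list of 0.18, and without it 18 members were called lower. DDIT4, a stress inhibitor of mTOR, held 5327, 4115 and 3956 against 1588, 1378 and 1657 (log2 difference -1.53 ± 0.14, adjusted p = 6.8e-05).

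Of 23 genes of cholesterol and fatty acid synthesis, 9 were called lower and 1 higher, but 3 were called lower without p53-deleted library A or B, 5 without wild-type library B and 4 when block-centred. SREBF1, the lipogenic transcription factor, and ACACA, acetyl-CoA carboxylase, held 2674, 1783 and 1604 against 868, 514 and 1085 and 4422, 3492 and 3489 against 1669, 1312 and 2070.4 and fell by 1.33 ± 0.27 and 1.19 ± 0.17 (adjusted p = 0.0054 and 8.4e-04). Of 7 aldo-keto reductases, 6 were called lower and none higher. AKR1C2 held 412, 364 and 398 scaled reads in the wild-type line and 61, 82.8 and 74 in the p53-deleted line (log2 difference -2.42 ± 0.15, adjusted p = 9.5e-06), and AKR1C1, AKR1C3 and AKR1B10 fell by 2.12 ± 0.29, 2.05 ± 0.22 and 3.56 ± 0.60 (adjusted p = 6.7e-04, 1.8e-04 and 0.0019). These steroid and aldehyde reductases are close copies. NQO1, a quinone reductase and, like some of them, a target of NRF2, held 1093, 1249.7 and 1448 against 4278, 5457 and 4476 and rose by 1.91 ± 0.14 (adjusted p = 1.8e-05), and the glutathione synthesis gene GCLM rose by 0.56 ± 0.12 (adjusted p = 0.0075). The ferritin genes FTH1 and FTL went apart, by -1.84 ± 0.15 and 0.65 ± 0.15 (adjusted p = 3.2e-05 and 0.0087), and lie in the lowered chromosome 11 and the raised chromosome 19 segment. FTL and the pentose phosphate gene TALDO1, which fell by 0.85 ± 0.10, were not called when block-centred (adjusted p = 0.19 and 0.070). In all, 4 of 16 NRF2 and pentose phosphate genes were called in each direction, and 2 lower without wild-type library B or p53-deleted library A or when block-centred. ALDH1A3, a retinaldehyde dehydrogenase of mammary progenitors, held 3683, 3411 and 3724 against 10344, 11014 and 10476 (log2 difference 1.56 ± 0.10, adjusted p = 1.2e-05), while ALDH3A1 held 317, 221 and 220.4 against 17.3, 21.2 and 16.8 (log2 difference -3.69 ± 0.21, adjusted p = 4.5e-06), and ALDH3A2 fell by 0.71 ± 0.10 (adjusted p = 7.5e-04).

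Of 15 BCL2 family genes, 4 were called lower and 2 higher, and none higher when block-centred. BIK and HRK, BH3-only promoters of apoptosis, held 411, 389 and 468 against 118, 163 and 125 and 242, 84.6 and 78.1 against 26.4, 6.4 and 41.5 scaled reads and fell by 1.64 ± 0.16 and 2.52 ± 0.63 (adjusted p = 8.6e-05 and 0.014). BCL2L1, which encodes the survival protein BCL-XL, held 2008, 2022 and 2108 against 3762, 3179 and 4026 (log2 difference 0.83 ± 0.11, adjusted p = 6.7e-04). It lies in the chromosome 20 segment, and when block-centred its difference was -0.034 (adjusted p = 0.89).

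Most defining markers of other cell types were below 10 scaled reads in both lines, 6 of 10 for fibroblasts, 6 of 9 for endothelium, 7 of 10 for leukocytes, 4 of 6 for adipocytes and 9 of 11 for neurons. The 9 endothelial markers summed to 173.8 to 210.2 scaled reads in the wild-type libraries and 74.6 to 104.7 in the p53-deleted ones, and PECAM1, TIE1 and EMCN had no read. The 10 leukocyte markers summed to 336 to 976 against 133 to 152, in the wild-type line mostly from CD14 at 836, 256 and 247 against 74.6, 46 and 96.8 (log2 difference -2.42 ± 0.45, adjusted p = 0.0031), while PTPRC, CD3E, CD3D, TYROBP and FCER1G had no read. The 10 fibroblast markers summed to 421 to 590.2 against 971 to 1225, with COL1A2 and COL3A1 at 0. The rise came from COL6A3 and from FAP, a surface protease at 196, 257 and 226 against 544, 449 and 537 (log2 difference 1.17 ± 0.14, adjusted p = 3.3e-04), and DCN fell. The 6 adipocyte markers summed to 51.3 to 75.9 against 0 to 3.95, from FABP4, with a ratio of 99.5 (95% interval 17.4 to 3974, 89 against 1 reads), and LPL, with a ratio of 31.3 (95% interval 10.4 to 155, 84 against 3 reads), and ADIPOQ and LEP had no read. The 11 neuronal markers summed to 66.5 to 117.9 against 32.8 to 46.4, in the wild-type line mostly from MAP2, which fell by 2.14 ± 0.31 (adjusted p = 8.6e-04), with SYP, SNAP25 and 4 others at 0. The part of any such cells in the results was not tested.

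The same contrast in the H-Ras lines rests on other libraries, and p53 status and line are confounded there in the same way. Wild-type H-Ras library C stood apart from A and B, and no fit left out an H-Ras library. Among 12316 genes tested in both pairs, 1038 of the 1899 called higher in the vector pair were also called higher in the H-Ras pair (54.7%, and 47.6% of the 2180 called higher there), against 17.7% of all genes, and 96 were called the opposite way. Of 1812 called lower, 933 were also called lower (51.5%, and 39.4% of 2367), against 19.2% of all genes, and 104 the opposite way. The line difference itself differed between the pairs for 2323 of 13359 genes (17.4%) by limma's interaction test, 552 of them among those called higher and 565 among those called lower in the vector pair. CDKN1A and GDF15 had log2 differences of -0.87 and -1.12 in the H-Ras pair, and the vector difference minus the H-Ras difference was -0.61 ± 0.17 and -2.69 ± 0.42 (adjusted p = 0.024 and 0.0011). MDM2, TP53I3 and RRM2B had 0.36, 1.61 and -1.0, of which MDM2 differed between the pairs (adjusted p = 0.0035) and TP53I3 and RRM2B did not pass that test (0.11 and 0.095). Collagen VI rose in both pairs, with 4.34, 3.23 and 3.78 for the 3 chains among the H-Ras lines. CCND2 fell there too, with -5.39.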

How the data were processed

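RNA from 12 MCF10A samples was sequenced with a TruSeq RNA kit after TRIzol extraction and oligo-dT selection, per the labels' protocols, and the submitters' processing notes name GRCh37 and the tools HTSeq, SAMtools, TopHat, Trimmomatic and FastQC. Their versions, the annotation and the strand setting: not given in the sources used here. As the authors deposited them, the values form 2 tables, 1 for each p53 background, of a normalized signal: means over a group's 3 libraries of reads divided by size factors, as read from the values. The labels do not say that replicates were separate cultures, so p-values reflect only how far these libraries differ, and that spread can be technical.

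The whole reads of single libraries that give each deposited mean were searched for, and 99.87% and 100.0% of genes above 0 in the p53-deleted and wild-type vector groups had 1 solution. Of 2000 means shifted slightly in each group, 0 were solved, and of 200 in the bounded search for abundant genes, 0 in the p53-deleted and 1 in the wild-type vector group. Each group column was divided by its median ratio to the geometric mean of the 4 columns over genes above 0 in all 4. Genes at 10 or more in either vector column were fitted on log2(value + 1) by limma (version 3.58.1, under R 4.3.3), two-sided, with a trend of variance on level. This scale understates changes of low genes. The deposited values are normalized means, so no count test was the main one, and limma-voom on the solved reads, an alternative, called 3872 genes. The H-Ras pair was fitted on its own 6 libraries and the interaction on all 12. Tested on simulated data, the fit called 97.2% of 107 genes changed 2-fold and 100% of 93 changed 4-fold, with 12 false calls among 12759 genes. The simulation gave all genes the same spread beyond counting error, changed no gene of the lowest levels and had no library that stood apart. These shares need not hold for the real libraries, where wild-type library A stood apart.

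The text names, in each direction, the 15 called genes that changed most among those at a mean of 100 or more in the higher line, up to 4 called members of each list and direction, any member of the lists of p53 targets, keratins, cadherins, intermediate filaments and CDK inhibitors, and the 5 largest interactions each way. Some genes are not reported here and were left out of the lists. Members and lists were chosen with earlier results of these data known. Gene order was taken from GENCODE v29 on GRCh38, and promoters from RefSeq, so no coordinates of the files are printed. Alternatives covered scaling, pseudocount, filter, fit, each library left out, block-centring and leaving out the segments. Python 3.11.15, NumPy 2.4.6, pandas 2.3.3, Numba 0.67.0 and Matplotlib 3.10.9 were used.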

Additional observations from a re-analysis of the deposited data

Results flagged for a closer look

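For 10 genes the line difference (p53-deleted minus wild-type) was itself different between the vector and the H-Ras libraries, by limma's interaction test, and these are the 5 largest such differences in each direction among genes called in the test with a mean of at least 100 scaled reads in a vector line. All values of the difference are vector pair minus H-Ras pair, in log2.

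KRT13 reached 873 to 1824 scaled reads in the p53-deleted vector libraries, against 1.8, 0 and 3.9 in the p53-deleted H-Ras libraries and 3, 1 and 0 in the wild-type ones, and its difference was 7.79 ± 0.89 (adjusted p = 1.3e-04). KRT4 had no read in any H-Ras library, and its difference was 6.2 ± 0.61 (adjusted p = 4.4e-05). Against groups at or near 0 these fitted values depend on the count added before the logarithm. SERPINB2 was higher with p53 deleted in the vector pair and lower in the H-Ras pair, at 57.8, 69.1 and 52.7 against 1.8, 1 and 1.9 scaled reads, a difference of 6.6 ± 0.53 (adjusted p = 1.2e-05). PI3 did the same, at 345, 349 and 324 against 36.8, 22.9 and 30 in the H-Ras pair, a difference of 5.73 ± 0.30 (adjusted p = 3.5e-07). DPYSL3 was low in the wild-type vector libraries alone, with 323, 280.4 and 559 against 254, 391 and 385 in the H-Ras pair, a difference of 5.49 ± 0.77 (adjusted p = 5.0e-04).

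In the other direction stood CAMK2B, a calcium-dependent kinase subunit, which held 863, 164 and 146 against 27.3, 13.8 and 19.7 scaled reads in the vector pair and 15.2, 9.1 and 7.5 against 156, 125 and 125 in the H-Ras pair, a difference of -7.34 ± 0.76 (adjusted p = 6.7e-05). SYT12, a synaptotagmin, held 488, 201 and 159.8 against 22.7, 9.2 and 20.7 in the vector pair and 91.3, 77.2 and 15 against 700.2, 457 and 433 in the H-Ras pair, a difference of -7.26 ± 0.85 (adjusted p = 1.5e-04). COBL, an actin nucleator, held 718, 577 and 597 against 166, 136 and 159 and 6.1, 11.2 and 4.3 against 142, 199 and 174, a difference of -6.50 ± 0.36 (adjusted p = 5.7e-07). ALDH3A1 held 48.7, 47.7 and 22.6 against 181, 149.7 and 171 in the H-Ras pair, a difference of -5.82 ± 0.38 (adjusted p = 1.8e-06), and NGFR was near 0 in all H-Ras libraries, a difference of -5.88 ± 0.69 (adjusted p = 1.7e-04). CAMK2B and SYT12 were highest in wild-type vector library A, and without it their differences between the pairs were -6.52 ± 0.42 and -6.78 ± 0.82 (adjusted p = 4.0e-06 and 2.7e-04). All 10 differences passed limma's interaction test when each vector library was left out in turn. No H-Ras library was left out, although wild-type H-Ras library C stood apart, so how far the differences rest on it was not tested.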

How the results depend on the processing

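Other scalings, pseudocounts, filters and fits gave 3212 to 4306 called genes against 3901. Leaving out each vector library gave 2517 to 4711 called genes, 1273 to 2414 higher and 1244 to 2297 lower, 741 to 1197 higher and 686 to 1093 lower in both pairs, 1632 to 2253 with a different line difference between the pairs, and 124 to 191 list members higher and 176 to 241 lower. The lowest number called came without p53-deleted library A, where 1273 were higher and 1244 lower. Block-centring and leaving out the 5 segments were chosen after seeing the data. Block-centred, 1289 genes were called higher, 642 of them in both pairs, and BCL2L1 turned to -0.034 on the log2 scale, SESN1 to 0.030 and PHLDA3 to -0.38. Without the genes of the segments, 2424 were called, 1049 higher, with 529 higher and 617 lower in both pairs and 96 list members higher. Of the genes left out 63.2% were called, against 24.3% of the others in order.

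Of the 236 called genes named, 202 kept their call in every fit run on them. In the fit on all 12 libraries, RBL1, CDKN2D, PCNA, CCNE2, CDK1, KIF11, TOP2A, KRT16, OVOL2 and CDH1 lost theirs, and without a variance trend CCNE2, KIF11, TOP2A, KRT14, KRT6A, ELF3 and CDH1 did. The sign turned for some genes that did not pass the test. FDXR was at 0.0055 when scaled by total reads. When each library was left out, the log2 difference ranged from -0.13 to 0.078 for FDXR, from -0.26 to 0.076 for SESN1, from -0.20 to 0.064 for PLK3, from -0.014 to 0.29 for CCNG2, from -0.043 to 0.54 for TP53INP1, from -0.12 to 0.14 for POLH, from -0.18 to 0.27 for REV3L, from -0.13 to 0.17 for PIDD, from -0.22 to 0.37 for LMNB1, and from -0.0032 to 0.42 for KRT10. No paired analysis was possible because the deposited columns carry no replicate numbers and the solved libraries cannot be matched to them. Depth limits genes near 10 scaled reads, and 28 abundant genes could not be solved into libraries and were not tested. No clone number, DNA copy number or sequence across the deleted exon was measured.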

Other observations

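Genes of the HOXC cluster, which sets positional identity, were higher in the p53-deleted vector line, with 6 of 7 tested members called higher and none lower, and 3 higher without p53-deleted library A or B and 5 without any of the other libraries. HOXC13 held 56.7, 59.4 and 46.7 scaled reads in the wild-type line and 248, 204 and 253 in the p53-deleted line (log2 difference 2.10 ± 0.17, adjusted p = 3.6e-05), and HOXC11 held 5.5, 11 and 12.8 against 72.8, 82.8 and 76 (log2 difference 2.93 ± 0.31, adjusted p = 1.5e-04), each without overlap. None of the 8 HOXA genes or 4 HOXB genes tested was called, save 1 HOXA gene without wild-type library B and 1 HOXB gene without p53-deleted library A. Imprinted genes had 3 of 9 called higher and 4 lower, but 5 of the 9 lie in the segments. Block-centred, 1 was higher and 3 lower, and outside the segments 1 and 1 of 4 were. MEST held 93.2, 118 and 141 against 388, 357 and 405 (log2 difference 1.72 ± 0.17, adjusted p = 9.8e-05), and PEG10 held 1738, 1573 and 1465 against 811, 909 and 827 (log2 difference -0.90 ± 0.11, adjusted p = 3.1e-04). The de novo DNA methyltransferase DNMT3B held 44.8, 55 and 40.8 against 172, 178 and 179 (log2 difference 1.90 ± 0.17, adjusted p = 6.5e-05), in the chromosome 20 segment. In its list, 3 of 18 genes of DNA methylation and Polycomb were called higher, near the 15.6% of all genes, and none lower. Without wild-type library A, 4 were higher and 2 lower.

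Of 16 named long noncoding RNAs, 4 were called higher and 5 lower, and 3, 3 and 2 lower without wild-type library B and p53-deleted libraries B and C, and 2 when block-centred. UCA1, known from bladder cancer, held 250.5, 51.7 and 61.8 against 875, 740.5 and 970.5 scaled reads (log2 difference 3.19 ± 0.48, adjusted p = 0.0011), and TINCR, which is known from keratinocyte differentiation, 7.06 ± 4.14 against 139 ± 33.2 (mean ± SD, n = 3) (log2 difference 4.27 ± 0.43, adjusted p = 1.3e-04). NEAT1, the RNA of paraspeckles and a known target of p53, held 3333, 1951 and 1204 against 831, 686 and 582 (log2 difference -1.52 ± 0.31, adjusted p = 0.0052), with wild-type library A the highest. NEAT1 lies in the chromosome 11 segment and was not called when block-centred (adjusted p = 0.056). PVT1, the neighbour of MYC, fell by 0.92 ± 0.17 (adjusted p = 0.0029). The protocadherin PCDHB6 had no read in the wild-type libraries and was at least 21.8-fold higher, and PCDHB2 had a ratio of 42.0 (95% interval 11.3 to 352, 2 against 94 reads).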
